A study of Saccharomyces cerevisiae with 4 samples.

Results

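The arms of chromosome VI were taken as positions 20000 to 128500 and 168700 to 250100 of genome release R64, which leaves out the ends and the region around the centromere. Their replication was read from BrdU-IP-Seq, the sequencing of DNA immunoprecipitated with an antibody to the thymidine analog BrdU. Of the 392 origins in the study's origin list, 8 have their midpoint within these limits: ARS600.4, ARS601, ARS602, ARS603, ARS603.1 and ARS603.5 on the left arm, and ARS607 and ARS608 on the right arm. *rif1Δ* cells, in which KanMx replaced *RIF1*, were compared with *WT* cells of the same W303-derived background. Both strains were *MATa* and carried *bar1Δ::hisG*, *LEU2::BrdU-Inc*, which lets cells take up and use BrdU, and the alleles *can1-100*, *trp1-1*, *his3-11,15*, *ade2-1* and *ura3-1*. Cells of each strain were held in G1 with 7.5 nM α-factor for 4 h and then freed at 23 °C with 200 µg/mL pronase, which digests α-factor, and they spent 45 min in 0.2 M hydroxyurea (HU) while BrdU at 400 µg/mL was present. Each strain had 2 libraries, but the deposited profile holds 1 averaged value per strain for each 50 bp bin. No difference given here therefore carries a replicate error or a test, and the authors' own comparison of the replicates was not used. The read depth behind a bin is unknown.

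Replication of a budding yeast chromosome starts at origins, or ARS elements, each of which binds the origin recognition complex and is loaded with the replicative helicase in G1. Origins then fire at characteristic times in S-phase. HU starves cells of deoxyribonucleotides, so that forks from early origins stall near their start and the checkpoint holds back origins that have not fired. A BrdU peak at a known origin in HU is thus read as firing of that origin under these conditions. Rif1 was first known as a telomere protein that binds Rap1, and it is known to bring protein phosphatase 1 to chromatin, where it opposes the kinase that activates the loaded helicase.

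Over *RIF1* itself (YBR275C, chromosome II, 751356 to 757106) the mean signal was 0.433 in *rif1Δ* and 3.09 in *WT* cells, which checks the strain labels. Over all nuclear bins the mean signal was 12.1 in *rif1Δ* and 12.6 in *WT* cells, and how the authors scaled the strains to each other is not stated. The background was measured in 5684 windows of 1 kb whose distance to the nearest listed origin was 10 kb or more, and their 99th percentile served as threshold. It was 13.7 in *rif1Δ* and 13.6 in *WT* cells. The log2 ratio of *rif1Δ* to *WT* in these windows had a median of 0.02, and 95% of them lay between -1.20 and 0.94, which describes how far the averaged profiles differ where no origin is listed.

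Across both arms the mean signal was 18.0 in *rif1Δ* and 14.7 in *WT* cells. The left arm averaged 12.2 in *rif1Δ* and 8.78 in *WT* cells, and the right arm 25.7 and 22.5 in the same order. The ratio of the means over both arms was 1.23, or 0.29 on the log2 scale. This was the second highest among the arms of the 16 chromosomes, which ranged from -0.34 on chromosome V to 0.36 on chromosome VIII. With 2 kb left out at each limit of the chromosome VI arms it was 0.24, under the 0.25 of the untrimmed chromosome I arms. The median bin differed little, at 4.00 in *rif1Δ* and 3.62 in *WT* cells. The higher mean of *rif1Δ* lay near the listed origins. Within 5 kb of one, the mean was 40.7 in *rif1Δ* and 31.6 in *WT* cells, whereas in the 117.75 kb of arm farther away it was 4.05 in *rif1Δ* and 4.30 in *WT* cells. The list was made from peaks of either strain in these same libraries, so this contrast was partly set by the list. On the right arm the mean was higher in *rif1Δ* cells although fewer bins exceeded the background threshold, 19.2% in *rif1Δ* against 22.7% in *WT* cells.

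**Figure D1:**
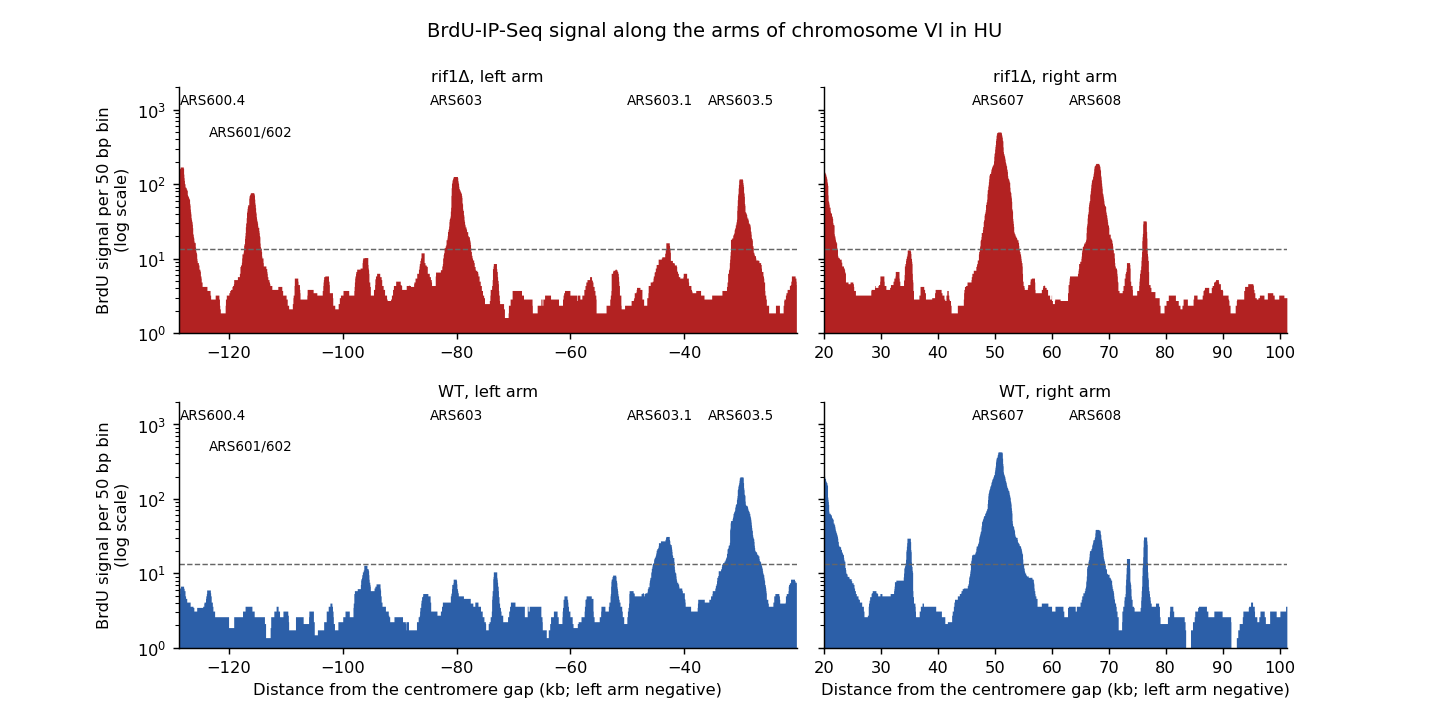
BrdU signal per 50 bp bin (log scale) along the left and right arms of chromosome VI against distance from the centromere gap, for *rif1Δ* (top) and *WT* (bottom); each line of bins is the authors' mean of 2 replicates, and dashes mark the background threshold of 13.7 in *rif1Δ* and 13.6 in *WT*. Tall peaks at ARS601, ARS602 and ARS603 stand in *rif1Δ* cells where *WT* cells have 8.38 or less, while ARS603.1 and ARS603.5 are taller in *WT* cells.

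The origins of the left arm differed by position in the direction of their difference. The 4 origins farthest from the centromere, ARS600.4, ARS601, ARS602 and ARS603, were each at least 16.9 times as high in *rif1Δ* as in *WT* cells. The 2 nearer ones, ARS603.1 and ARS603.5, were lower in *rif1Δ* cells. The signal of an origin was the mean over bins that start within 500 bp of its midpoint. For log2 ratios 1 was added to both signals, which understates the change of weak origins. By this measure 7 of the 8 arm origins exceeded the background threshold in *rif1Δ* cells, against 91.1% of all listed origins, and 4 of 8 in *WT* cells, against 63.8% of all. A log2 ratio of at least 1 was found at 5 of 8, against 41.6% of all listed origins. A log2 ratio of -1 or less was found at 1 of 8, against 8.93% of all. With 8 origins, of which ARS601 and ARS602 share 1 peak, these shares are a description. The median log2 ratio was 3.10 over the 8, a value between the 2.30 of ARS608 and the 3.90 of ARS603, and 2.30 with ARS602 left out. It was 0.67 over the 306 listed origins in the arms of the other 15 chromosomes and 0.58 over all 392. The list holds only origins at which the authors found a peak in either strain of these same libraries, so an origin without a *WT* peak entered it only through *rif1Δ*.

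**Figure D2:**
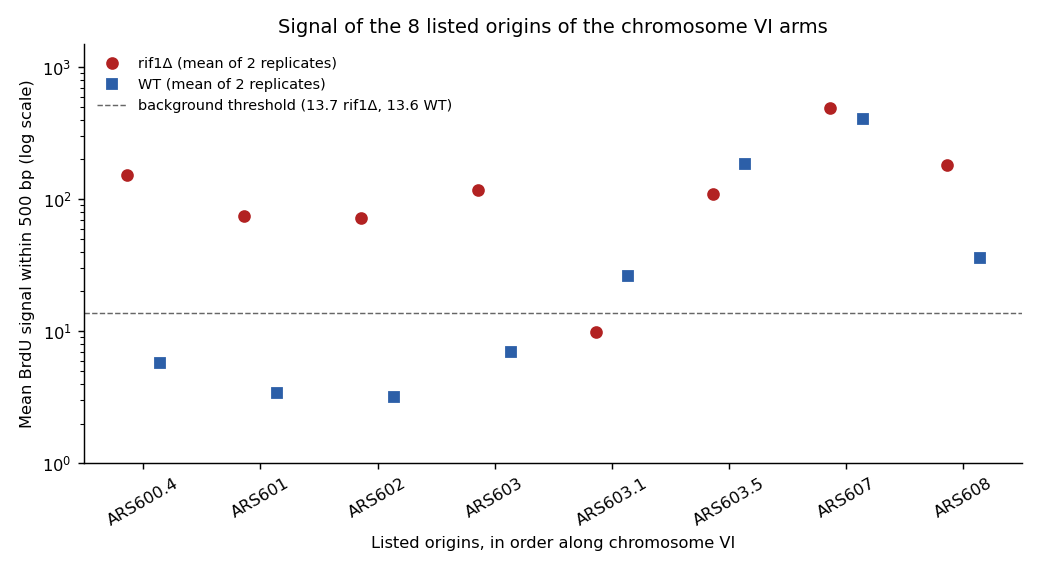
Mean BrdU signal within 500 bp of each of the 8 listed origins (log scale), in order along chromosome VI, with *rif1Δ* as circles and *WT* as squares; each point is an average of 2 replicates with no error to show. The 4 leftmost origins are between 72.1 and 154 in *rif1Δ* and between 3.18 and 7.0 in *WT* cells.

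ARS600.4 (chromosome VI, 19669 to 20826, between the amino acid permease gene *AGP3* and the aquaglyceroporin-like gene *AQY3*) crosses the outer limit of the left arm, with its midpoint just inside it. The signal at the limit itself was 130 in *rif1Δ* and 4.50 in *WT* cells, so part of this peak lies outside the arm. Its signal was 154 in *rif1Δ* and 5.78 in *WT* cells, a log2 ratio of 4.51 that ranked 4 among the 392 origins. The exact ratio and rank rest on a *WT* signal below the background threshold. Under other settings the log2 ratio of ARS600.4 ranged from 3.38 to 5.58. The *rif1Δ* peak ran from 17800 to 22950 and had its summit of 171 at 20525. Its left side covered ARS600.3, whose midpoint lies 0.974 kb away and outside the arm limits. The signal averaged 84.3 in *rif1Δ* and 3.27 in *WT* cells at 1 kb to the left of the ARS600.4 midpoint, and 90.8 and 4.85 in the same order at 1 kb to the right. Between the 2 midpoints the *rif1Δ* signal never fell under 85.8, so the profile did not resolve them as separate peaks. The *WT* signal reached 6.75 within 1 kb of ARS600.4, which is below the background threshold.

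ARS601 (32472 to 32995) and ARS602 (32666 to 33247) have overlapping intervals between YFL051C and *ALR2*, a gene for a magnesium transporter. They shared a single *rif1Δ* peak from 31400 to 34500 with a summit of 77.1. That summit, at 32875, lies between the midpoints of ARS601 and ARS602 and within both intervals. ARS601 had 74.0 in *rif1Δ* and 3.42 in *WT* cells, and ARS602 had 72.1 in *rif1Δ* and 3.18 in *WT* cells. The log2 ratios were 4.08 and 4.13, ranking 11 and 9 of 392. Since the *WT* values were close to the median background window, 3.11, the exact ratios and ranks rest on background signal, and under other settings the log2 ratio ranged from 2.65 to 6.16 at ARS601 and from 2.64 to 6.12 at ARS602. Because the windows of ARS601 and ARS602 overlap, these are nearly the same measurement. No *WT* maximum stood out at this site: the highest *WT* bin within 1 kb was 3.62. Between ARS600.4 and ARS601 the signal dropped to 1.88 in both strains, so the peak was separate from that of ARS600.4.

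ARS603 (68690 to 68869) overlaps the right edge of *MIL1*, and *RIM15*, which encodes a protein kinase of stationary phase, lies to its right. Its signal was 118 in *rif1Δ* and 7.0 in *WT* cells, with a log2 ratio of 3.90 and rank 16. Here too the *WT* signal was below the background threshold, so the exact ratio and rank rest on background signal. Under other settings the log2 ratio of ARS603 ranged from 2.92 to 4.73. The *rif1Δ* peak spanned 66600 to 71300, had a summit of 127 at 68575 and was 2000 bp wide at 50% of its height. *WT* cells had a low maximum at nearly the same place, 8.38 at 68475, which is below the background threshold. At 2 kb from the midpoint the signal was 15 on the left and 21.3 on the right in *rif1Δ* cells, against 4.12 and 4.62 in *WT* cells. At 4 kb it was 4.38 and 5.22 in *rif1Δ* against 3.12 and 3.57 in *WT* cells. The log2 ratio thus shrank to 0.38 on the left and 0.44 on the right at that distance. The difference between strains was thus small at 4 kb from the midpoint. ARS603 stood alone. ARS602 and ARS603.1 lie 35.8 kb away on either side, and between ARS603 and each of them the signal fell to 2.12 or less in both strains.

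ARS603.1 (104456 to 104695) overlaps the edge of *GNA1*, which encodes an acetyltransferase of the hexosamine pathway, and borders *MDJ1*, the gene for a mitochondrial Hsp40 chaperone. It was the only arm origin above background in *WT* cells and not in *rif1Δ* cells, as were 17 of all 392. Its signal was 9.95 in *rif1Δ* and 26.1 in *WT* cells, a log2 ratio of -1.31 that ranked 366. This ratio lay just outside the spread of the background windows, -1.20 to 0.94. The *WT* signal did not pass a threshold exceeded by 1 in 1000 background windows (41.3), and the log2 ratio was -0.86 with a pseudocount of 10. The listed midpoint was not the top of the peak. In both strains the summit lay at 105825 within *MDJ1*, over 1 kb to the right, where the signal was 16.4 in *rif1Δ* and 31.4 in *WT* cells. A *rif1Δ* peak was therefore found, although its summit passed the threshold of 13.7 by little. It ran for 750 bp above the threshold, against 3800 bp in *WT* cells. The *WT* peak was broad and lopsided. At 50% of its height it was 3550 bp wide, the widest of the 7 *WT* peaks on the arms. It reached 2400 bp to the left of the summit but 1150 bp to the right. By the same measure the *rif1Δ* peak was as broad, at 3600 bp, with 2000 bp to the left and 1600 bp to the right. Measured from the median nuclear bin, the *rif1Δ* peak was 1650 bp wide, against 3100 bp in *WT* cells.

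ARS603.5 (118631 to 118952) lies between *CDC4*, which encodes the F-box protein that targets Sic1 for destruction, and *SMC1*, which encodes a cohesin subunit. It is the arm origin nearest the centromere, 29.7 kb away. Its signal was 109.8 in *rif1Δ* and 185 in *WT* cells, 0.593 times as high, with a log2 ratio of -0.75 and rank 343. Its summit was 118 at 118725 in *rif1Δ* and 198 at 118825 in *WT* cells. The lower signal in *rif1Δ* cells was more marked just beside the peak than on it. The log2 ratio was -0.75 at the midpoint and -1.46 and -1.07 at 1 kb to the left and right. At 3 kb to the left it was -1.71, with 3.75 in *rif1Δ* and 14.6 in *WT* cells, whereas at 4 kb to the right it was -0.70. Of these ratios, only those on the left lay outside the spread of the background windows, -1.20 to 0.94. Those windows have far lower signal than the summit and span 1 kb, whereas these ratios are of means within 250 bp. The stretch between ARS603.1 and ARS603.5 had a median bin of 5.50 in *rif1Δ* and 8.31 in *WT* cells and dropped to 2.88 in *rif1Δ* and 3.12 in *WT* cells, so their peaks were separate in both strains. Within 3 kb of ARS603.5 lay 6.51% of all arm signal in *rif1Δ* and 16.2% in *WT* cells.

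**Figure D3:**
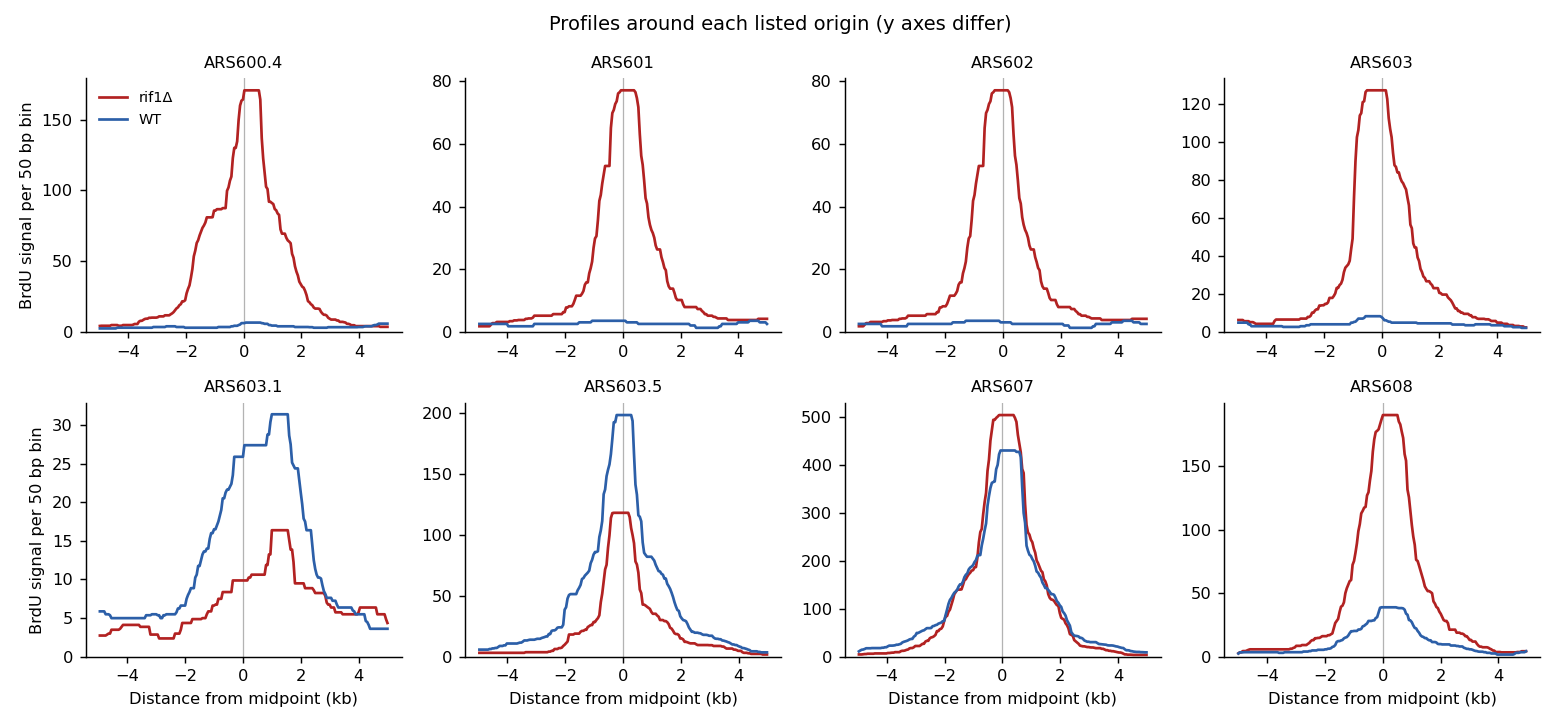
BrdU signal per 50 bp bin against distance from the midpoint of each of the 8 listed origins, with *rif1Δ* in red and *WT* in blue, averages of 2 replicates; the y axes differ. ARS601 and ARS602 show the same peak, the ARS603.1 peak lies to the right of the midpoint in both strains, and the ARS607 curves cross, with *rif1Δ* higher at the summit (503 against 429.5 in *WT*) and lower beyond 2 kb.

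The nearest listed origins toward the centromere, ARS605 and ARS606, lie outside the arm limits, but the right side of the ARS606 peak runs into the right arm. At 168700 the signal was 166 in *rif1Δ* and 221 in *WT* cells, and it first fell below the background threshold at 171075 in *rif1Δ* and at 172475 in *WT* cells. The first 10 kb of the right arm therefore held no listed origin but averaged 19.3 in *rif1Δ* and 28.7 in *WT* cells.

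ARS607 (199382 to 199493, within the noncoding RNA gene *RUF22*) gave the tallest peak of the arms in both strains. Its signal was 492 in *rif1Δ* and 407 in *WT* cells, rank 3 of 392 in *rif1Δ* and rank 25 in *WT* cells. The log2 ratio of 0.27 ranked 207 of 392, near the middle of the list. Within 3 kb of ARS607 lay 34.4% of the arm signal in *rif1Δ* and 39.2% in *WT* cells. The strains differed in the shape of this peak more than in its height. The log2 ratio was 0.25 at the midpoint, -0.20 at 2 kb to the left and -0.19 at 2 kb to the right. At 4 kb to the left it was -1.36, where the signal was 7.62 in *rif1Δ* and 21.1 in *WT* cells. At 4 kb to the right it was -1.09, with 9.09 in *rif1Δ* and 20.4 in *WT* cells. Of these ratios, only that at 4 kb to the left lay outside the spread of the background windows, -1.20 to 0.94. Those windows span 1 kb and had a median of 3.11 in *WT* cells, whereas these ratios are of means within 250 bp at higher signal. Their spread is thus not a measure of error for these ratios. At 50% of the summit the peak was 1800 bp wide in *rif1Δ* and 1700 bp in *WT* cells. At 10% of the summit it was 4650 bp wide in *rif1Δ* and 5700 bp in *WT* cells, so it was narrower at its base in *rif1Δ* cells. Averaged over 5 kb to each side, the signal was nearly the same, at 121 in *rif1Δ* and 118 in *WT* cells.

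A narrower base was found at other strong origins too. At ARS603.5 the width at 10% of the summit was 4250 bp in *rif1Δ* and 5000 bp in *WT* cells. Among 56 other arm origins of the 15 other chromosomes with a listed interval of at most 1000 bp, a summit of at least 100 in both strains and no listed origin within 10 kb, all 56 were narrower in *rif1Δ* cells. Their median width was 4525 bp in *rif1Δ* and 6000 bp in *WT* cells. The median of the differences was -1300 bp for these 56, against -1050 bp at ARS607 and -750 bp at ARS603.5. The deposited values were smoothed over 1 kb, and the part of smoothing and scaling in the widths was not tested.

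**Figure D4:**
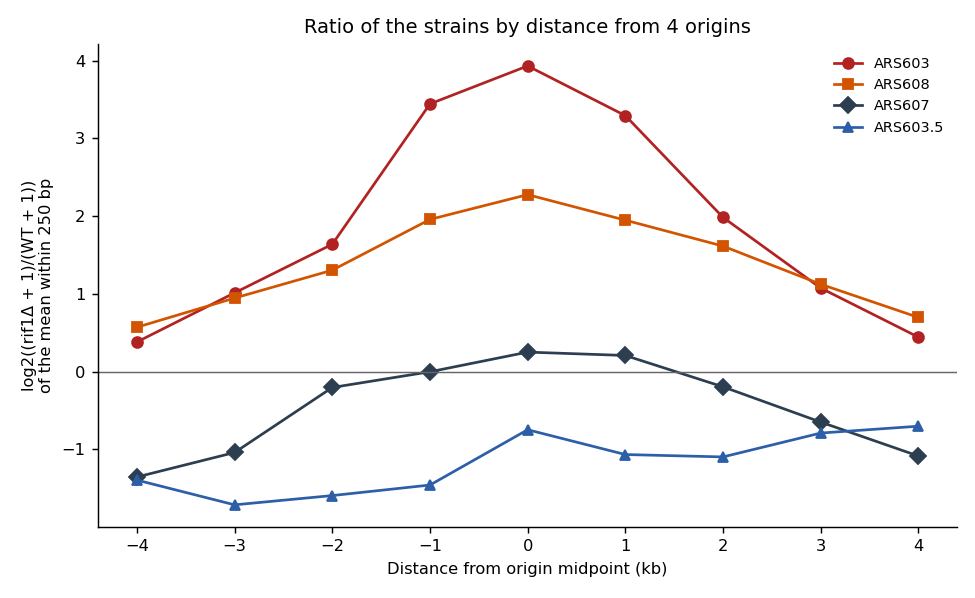
log2 ratio of *rif1Δ* to *WT* (pseudocount 1) of the mean signal within 250 bp, at the midpoint and at 1 to 4 kb on each side (left negative), for ARS603, ARS608, ARS607 and ARS603.5. At ARS603 and ARS608 the ratio is above 0 throughout and highest at the midpoint (3.93 and 2.28), at ARS607 it changes from 0.25 at the midpoint to -1.36 at 4 kb to the left, and at ARS603.5 it is below 0 throughout.

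ARS608 (216344 to 216692) overlaps the ends of *MET10*, a sulfite reductase subunit gene, and *SMC2*, which encodes a condensin subunit. Unlike the 4 distal origins of the left arm, it was above background in both strains, although its *WT* signal did not pass the stricter threshold exceeded by 1 in 1000 background windows (40.3 in *rif1Δ* and 41.3 in *WT* cells). Its signal was 181 in *rif1Δ* and 35.8 in *WT* cells, 5.05 times as high, with a log2 ratio of 2.30 and rank 96. Both a signal above background in each strain and a log2 ratio of at least 1 were seen at 43 of the 392 origins, and ARS608 was the only 1 of these on the chromosome VI arms. Its summit was 190.5 at 216775 in *rif1Δ* and 39.0 at 216725 in *WT* cells. The peak was above threshold for 5350 bp in *rif1Δ* and 2950 bp in *WT* cells, a length that also depends on its height. At 50% of the summit it was 1950 bp wide in *rif1Δ* and 2400 bp in *WT* cells. Measured from the median nuclear bin, these widths were 1950 bp in *rif1Δ* and 2100 bp in *WT* cells. Relative to its own summit the peak was thus not wider in *rif1Δ* cells. At 4 kb the log2 ratio was 0.57 on the left and 0.70 on the right, within the spread of the background windows, which are longer. Although ARS607 and ARS608 lie 17.1 kb apart, the signal between them fell to 2.5 in *rif1Δ* and 2.62 in *WT* cells, and the neighbors did not share a peak. Within 3 kb of ARS608 lay 12.9% of the arm signal in *rif1Δ* and 3.79% in *WT* cells.

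**Figure D5:**
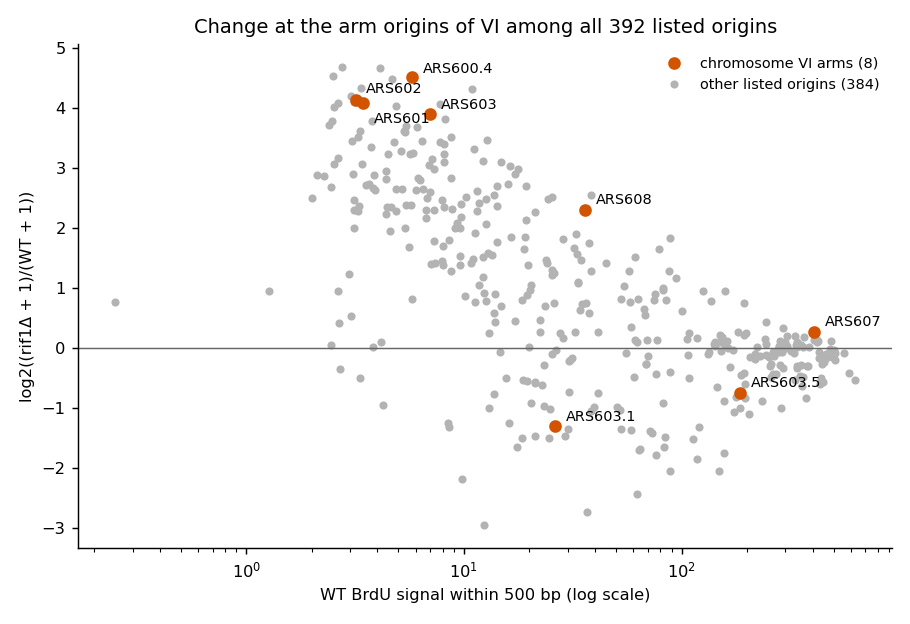
log2((*rif1Δ* + 1)/(*WT* + 1)) against *WT* signal (log scale) for all 392 listed origins, with the 8 arm origins of chromosome VI in orange and the other 384 in gray; each point is 1 origin. ARS600.4, ARS601, ARS602 and ARS603 lie at 3.90 or more with *WT* signals of 7.0 or less, and ARS608 lies at 2.30. *WT* signal enters both axes, so part of the downward slope is built in.

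The order of the origins by signal differed between the strains. In *rif1Δ* cells ARS607 was followed by ARS608, ARS600.4, ARS603, ARS603.5, ARS601, ARS602 and ARS603.1. In *WT* cells ARS607 was followed by ARS603.5, ARS608, ARS603.1, ARS603, ARS600.4, ARS601 and ARS602. In *WT* cells ARS603, ARS600.4, ARS601 and ARS602 were all below the background threshold, so their order there is one of background signal. ARS603.1 was below the threshold in *rif1Δ* cells. Without replicate values it cannot be said which neighbors in these orders differ beyond their spread, and ARS601 and ARS602 differed least. ARS603.5 thus held the second place in *WT* and the fifth in *rif1Δ* cells. The part of all arm signal found within 3 kb of ARS603 was 8.57% in *rif1Δ* and 1.07% in *WT* cells, and for ARS600.4 it was 7.77% in *rif1Δ* and 0.542% in *WT* cells. For ARS603.1 it was 1.47% in *rif1Δ* and 3.90% in *WT* cells. Only bins inside the arm limits were counted, so the share of ARS600.4 leaves out the part of its window beyond the limit.

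Peaks were also called on the profile, as runs of at least 500 bp above the background threshold with their summit in the arms. There were 8 in *rif1Δ* and 7 in *WT* cells. The calls did not use origin positions, but the threshold came from windows away from listed origins. The list itself was made from peaks in these same libraries. A listed origin lay within 2 kb of the summit for 7 of the 8 *rif1Δ* peaks and for 4 of the 7 *WT* peaks. All the unlisted ones were short. The tallest had its summit over *PHO4*, which encodes the transcription factor of phosphate starvation, with 32.2 at 225075 in *rif1Δ* and 30.9 at 225175 in *WT* cells. It was alike in both strains, and 950 bp wide at 50% of its height in *rif1Δ* and 850 bp in *WT* cells, near the 1 kb over which the authors smoothed. The 2 other unlisted *WT* peaks did not pass the threshold in *rif1Δ* cells. One over YFR018C reached 13.1 in *rif1Δ* and 29.8 in *WT* cells at 183625. One over *RRT5* reached 8.88 in *rif1Δ* and 15.9 in *WT* cells at 222175. Of the 3 unlisted sites, only that over *PHO4* was taller in *rif1Δ* than in *WT* cells, and by little.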

How the data were processed

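BrdU-IP-Seq was analysed for 2 *rif1Δ* and 2 *WT* libraries. The deposited values are a coverage signal in 50 bp bins, with 1 column for each strain that the authors made as the mean of its replicates. Paired reads had been aligned to release R64 by Bowtie2. A running median of 1 kb was applied, and the replicates of a strain were given a common distribution by quantile normalization. The replicates were then averaged and smoothed again, and the paper does not give the method or window of that last step. Smoothing flattens summits and merges close origins. No test between strains could be made, and depth per library is unknown. The labels give the HU dose as 0.2 without a unit, and the molar unit is that of the paper's methods.

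Origin names, positions and the list itself came from the supplementary origin table, and genes from the RefSeq table of R64 (GCF_000146045.2). The centromere was set between the last gene of one arm and the first of the other (148459 to 149110). Runs above the threshold were split where the signal between 2 maxima fell under 50% of the lower one. All 8 origins with midpoints in the limits were named, with the genes they overlap or lie between, and every called peak was described. The members, lists and thresholds were chosen with earlier results of these data known. The planned motif search and printing of origin sequence were not run, since no genome sequence was used here. Python 3.11.15, numpy 2.4.6 and pandas 2.3.3 were used, and the measures were tested on simulated data. Alternatives changed the window, pseudocount, scaling, threshold and limits.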

Additional observations from a re-analysis of the deposited data

How the results depend on the processing

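A log2 value is taken to have moved where it changed by more than 0.5, and a count where it changed by more than 1.5 times. The median log2 ratio of the arm origins, 3.10, moved to 2.55 with a mean over 5 kb, to 2.35 with a pseudocount of 10, and to 2.30 with only origins whose whole interval lies in the arms and also with ARS602 left out, an alternative chosen after seeing the data. The count of origins with a log2 ratio of -1 or less was 0 with a pseudocount of 10, since ARS603.1 then gave -0.86. With a threshold passed by 1 in 1000 background windows, 2 arm origins, ARS603.5 and ARS607, were above it in *WT* cells and 2 *WT* peaks were left, and ARS603.1 and ARS608 were lost. With the 95th percentile there were 14 *rif1Δ* and 13 *WT* peaks. No other count, and not the ratio of mean arm signal, moved past these limits. Of 56 log2 ratios of single origins under 7 alternatives, 12 moved and none changed sign: ARS600.4, ARS601, ARS602 and ARS603 moved with the 5 kb mean, with a pseudocount of 10 and with the median bin subtracted. ARS601 ranged from 2.65 to 6.16, ARS603 from 2.92 to 4.73, ARS603.5 from -0.99 to -0.69 and ARS607 from 0.14 to 0.33. Measured from the median nuclear bin, the *rif1Δ* peak at ARS603.1 was 1650 bp wide at 50% of its height instead of 3600 bp. No paired analysis was possible because each strain has only its averaged signal, and neither could single replicates be left out. The unknown depth limits the weakest values most, above all the *WT* signal of 3.18 to 7.0 at the 4 distal left-arm origins.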

Other observations

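With the 95th percentile of background windows as threshold, 7 maxima in *rif1Δ* and 8 in *WT* cells lay away from listed origins on the arms. Summits of 6 coincided within 500 bp, 85.7% of those in *rif1Δ* and 75% of those in *WT* cells. Besides the 3 sites already described, these were over YFL040W (10.4 in *rif1Δ*, 12.9 in *WT*), over *HAC1*, the transcription factor gene of the unfolded protein response (8.62 in *rif1Δ*, 10.5 in *WT*), and over *GAT1*, a GATA factor gene of nitrogen regulation (7.25 in *rif1Δ*, 9.50 in *WT*). The only 1 of the 7 in *rif1Δ* cells without a *WT* partner stood over *RPO41*, the mitochondrial RNA polymerase gene, with 12 in *rif1Δ* and at most 5.38 in *WT* cells within 1 kb. In *WT* cells, 1 over *BLM10*, a proteasome activator gene, reached 8.38, with at most 5.88 in *rif1Δ* cells. What these weak maxima are was not tested.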
